A study of Mus musculus with 24 samples.

Results

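EO771, a mouse mammary carcinoma line, was sequenced as 4 derivatives, and the 326 expressed genes of chromosome 18 that lie outside the clustered protocadherins were followed through them. X2 cells carried the empty retroviral control vector, CCR7 cells carried mouse Ccr7 cDNA, and X2-PDPN and CCR7-PDPN cells were sorted from these lines for spontaneous PDPN on their surface. CCR7 cells were themselves the PDPN-negative sort of the Ccr7 line. The Ccr7 vector came with a tdTomato reporter. The labels leave it unsaid whether X2 carried one, but the study showed tdTomato staining of X2 tumours and compared tdTomato levels across derivatives. The line (E0771 in the labels) came from a spontaneous tumour of C57BL/6 mice, all derivatives were grown in the same medium, and no single clones were picked. X2 and CCR7-PDPN were sequenced in both batches, CCR7 in batch 1 and X2-PDPN in batch 2, with 4 technical replicate libraries in each of the 6 groups. Each derivative is therefore 1 cell population, and p-values measure the spread between libraries of that population only.

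A gene was included when its first listed chromosome was 18, it lay outside the interval of the clustered protocadherins, and it had at least 10 counts in 4 or more of the 12 batch 1 libraries. Of 1399 chromosome 18 genes, 88 were in the left-out interval and 985 were under the count limit, 616 of them without a count in any batch 1 library. Of the 326 genes, 269 were protein coding, 287 had at least 10 counts in all 12 libraries of batch 1, and 323 were listed in batch 2. The same count limit was passed by 13328 genes of the 55471 on all chromosomes. The chromosome was chosen by its fold changes in CCR7-PDPN against CCR7 and in X2-PDPN against X2, so the values of these 2 comparisons are given as a description. Counts of genes called in them are printed beside the share of all genes called, and nothing is read from them.

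Chromosome 18 is among the smaller mouse autosomes. Its genes serve unrelated roles, and each is governed mainly by its own promoter and enhancers. They include Smad2, Smad4 and Smad7 of the TGF-beta pathway, the Wnt regulator Apc, the mesenchymal transcription factor Zeb1, the chaperone Hspa9 of mitochondria and the ribosomal protein Rps14. PDPN is a mucin-like glycoprotein of lymphatic endothelium and fibroblastic reticular cells, and CCR7 is the chemokine receptor that guides leukocytes to lymph nodes.

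Total counts lay between 22788542 and 35721027 in the 12 PDPN-positive libraries and between 22275468 and 33395418 in the 12 PDPN-negative ones. Ccr7 had 2740 to 3380 CPM (counts scaled to a common library size) in the CCR7 and CCR7-PDPN libraries and at most 0.951 in the others, and Pdpn had 23.3 to 26.7 CPM in the PDPN-positive libraries and at most 0.625 in the others. Of 4 epithelial markers, Krt8 was at 220 to 302 CPM in all libraries. Krt18, Epcam and Cdh1, measured here in batch 1 only, were at most at 0.281. Of 5 leukocyte markers, Cd3e was at 0 and Ptprc at most at 0.128 CPM in batch 1, where alone they had values. Cd79a stood at 0.335 to 0.725 CPM in X2 and at 1.71 to 3.53 in the other derivatives. Lyz2 went the other way, with 6.35 to 8.18 CPM in X2, 6.40 to 6.82 in X2-PDPN, 1.41 to 2.24 for CCR7 and 0.395 to 0.890 with both Ccr7 and PDPN. The part of these 2 genes in the results was not tested. The 2 endothelial markers summed to at most 0.901 CPM, and of the 3 fibroblast markers Pdgfra was at 141 to 186 CPM, while in batch 1 Lum was at 0 and Dcn at most at 0.0963.

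The chromosome 18 genes were slightly lower in each of the 12 PDPN-positive libraries, whether or not the cells carried Ccr7. The level of a library was taken as the median, over 316 genes tested in each of the batches, of the log2 CPM difference from the mean of the X2 libraries of its batch. This median was -0.195, -0.206, -0.218 and -0.187 in the 4 CCR7-PDPN libraries of batch 1. It was -0.242, -0.214, -0.213 and -0.199 in the CCR7-PDPN libraries of batch 2 and -0.215, -0.243, -0.217 and -0.205 in the X2-PDPN libraries. The 3 PDPN-positive groups overlapped each other, and every one of their libraries lay below every PDPN-negative library. The CCR7 libraries, which were PDPN-negative, had -0.014, 0.032, 0.021 and 0.038. The 8 X2 libraries, which are themselves the reference and so lie near 0, ranged from -0.016 to 0.007. Over all tested genes the same median lay between -0.005 and 0.008 in all 24 libraries.

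The share of all counts that fell on these genes separated the libraries in the same way. It comes from the same counts of genes chosen for being lower with PDPN, so both separations are a description. It was 2.11% to 2.17% in the PDPN-positive libraries and 2.51% to 2.59% in the PDPN-negative ones. Group means were 2.15% ± 0.017 (SD, n = 4) and 2.15% ± 0.017 for CCR7-PDPN in the 2 batches and 2.12% ± 0.013 for X2-PDPN, against 2.56% ± 0.036 in CCR7 and 2.55% ± 0.010 and 2.55% ± 0.019 in X2. In bulk RNA, a small decrease in every cell and a larger decrease in some of the cells cannot be told apart.

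**Figure D1:**
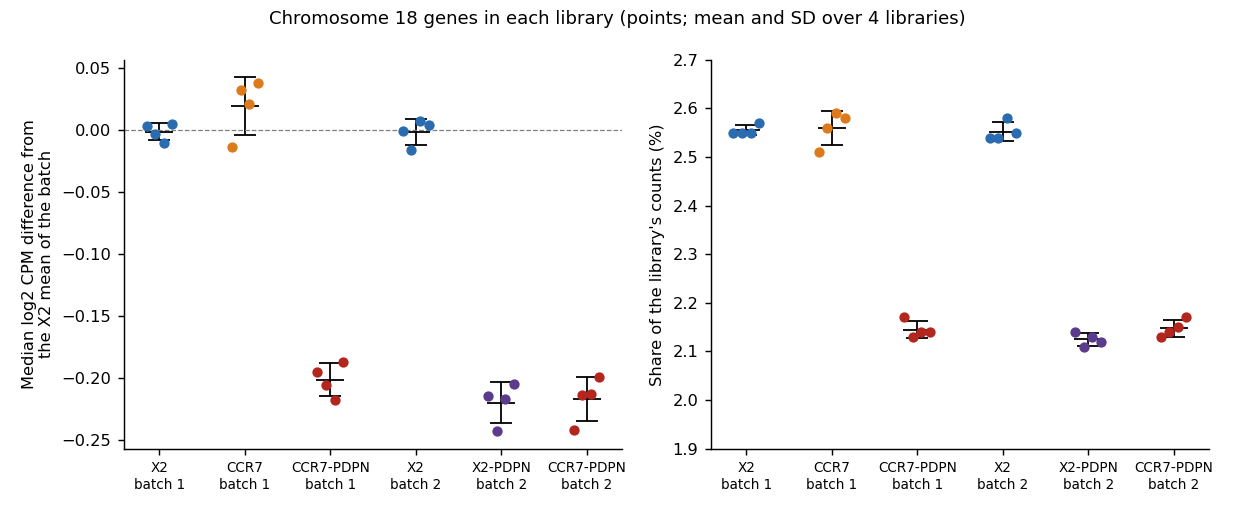
Left, median log2 CPM difference of 316 chromosome 18 genes from the X2 mean of the batch; right, share of each library's counts in percent, on an axis that starts at 1.9%. Points are single libraries and bars the mean and SD of 4 libraries; the 12 PDPN-positive libraries lie at or below -0.187 and 2.17%, and the 12 PDPN-negative ones at or above -0.016 and 2.51%.

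Between CCR7-PDPN and CCR7, 322 of the genes were tested and their median log2 fold change was -0.23 (quartiles -0.35 and -0.08), which is 85.2% of the CCR7 level. The fold change was below 0 for 278 of them, 86.3%, against 50.7% of all tested genes. At an adjusted p under 0.05, 198 were lower and 14 higher, where 20.7% of all genes tested were lower and 20.9% higher. The decrease was small gene by gene: 239 of the 322 genes lay between -0.5 and 0, 30 between -1 and -0.5, and 9 below -1. With the added limit of a 2-fold change only 8 were lower, beside 2.60% of all genes.

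Between X2-PDPN and X2, which share no library with the first pair, 317 genes were tested and the median was -0.21 (quartiles -0.36 and -0.06), 86.3% of the X2 level. Here 251 genes, 79.2%, lay below 0, against 49.8% of all genes. The calls were 198 lower and 26 higher, where 28.5% of all genes were lower and 28.2% higher, and 6 were lower past 2-fold, where the background was 1.55%. Between -0.5 and 0 lay 214 of the genes.

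CCR7-PDPN set against X2 differs in both markers and was sequenced in each batch. The median was -0.20 in batch 1 and -0.22 in batch 2, 86.9% and 86.1% of X2. In batch 1, 190 genes were lower and 37 higher by edgeR's quasi-likelihood test, with 30.6% and 30.3% of all genes in each direction. In batch 2 the counts were 195 and 39, beside 32.8% and 32.0%. Past 2-fold, 13 genes were lower in batch 1 and 16 in batch 2, against 5.36% and 5.67% of all genes. Among 316 genes with both estimates, 185 were lower in both, 97.4% of those called in batch 1 and 94.9% of those in batch 2, and the 2 estimates of a gene differed by a median of 0.04. Both batches sequenced the same derivatives, and this overlap was not computed over all tested genes. Nothing particular to chromosome 18 is therefore read from it.

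In the pairs of equal PDPN status the medians lay near 0. CCR7 against X2 had a median of 0.01, 58 genes lower and 81 higher, where 25.2% and 24% of all genes were called, and 9 past 2-fold beside 3.18%. CCR7-PDPN against X2-PDPN had a median of 0.02, 88 genes lower and 104 higher, where 32.0% and 31.2% were called, and 10 past 2-fold beside 6.40%. In both pairs, genes called lower were a smaller share of the chromosome 18 genes than of all genes. Genes called higher were a slightly larger share. Single genes moved in both directions, as they did over all genes, so nothing particular to chromosome 18 is read from these counts.

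The 2 PDPN differences were set against each other as (CCR7-PDPN minus CCR7) minus (X2-PDPN minus X2), which also sets batch 1 against batch 2. The median of this difference over 323 genes was 0.00 on the log2 scale. It was below 0 for 58 genes and above 0 for 63 at an adjusted p under 0.05, where 20.5% and 20.3% of all 13690 genes were called. Of 316 genes tested in both pairs, 229 lay below 0 in both, and 161 were lower in both, 81.7% of those lower with Ccr7 and 81.3% of those lower without it. Across these genes, which are not independent, the 2 log2 fold changes had a Pearson correlation of 0.486. Over all 13030 genes tested in both pairs, 30.6% lay below 0 in both, 1505 were lower in both, 55.5% and 39.7% of those lower in each, and the correlation was 0.337. Both pairs were in view when the chromosome was chosen, so these shares are a description.

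Among the medians of the 20 chromosomes tested, that of chromosome 18 was the lowest in CCR7-PDPN against CCR7, where the next was -0.11 on chromosome 14. It was also the lowest in X2-PDPN against X2, where chromosome 8 followed closely at -0.20. Against X2, CCR7-PDPN had chromosome 18 in the second place of both batches, behind chromosome 14 at -0.57 and -0.58. In CCR7 against X2 and in CCR7-PDPN against X2-PDPN, chromosome 18 was in places 15 and 13 from the lowest. These places describe the values that chose the chromosome.

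**Figure D2:**
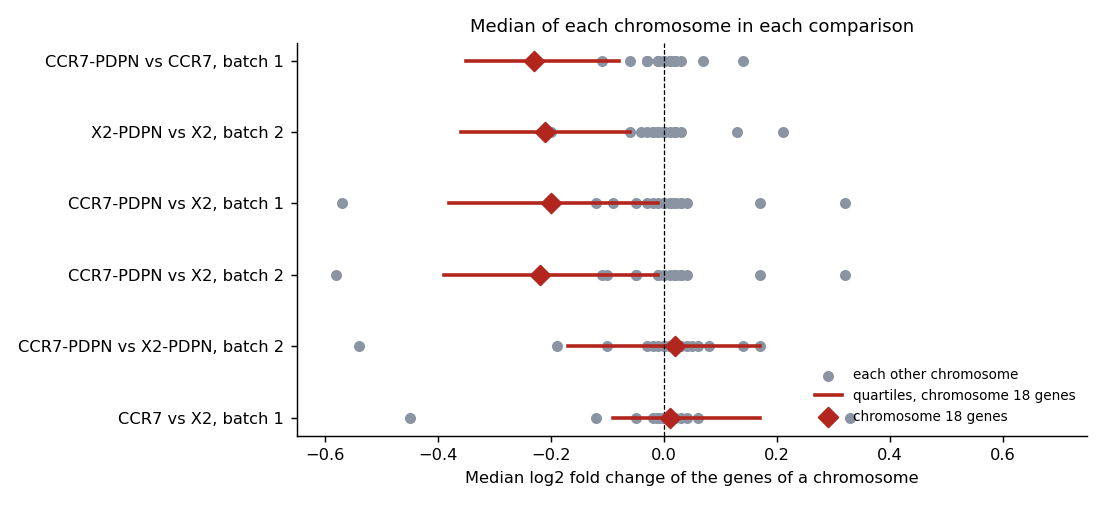
Median log2 fold change of the tested genes of each chromosome (horizontal axis) in the 6 comparisons (rows); diamonds are the chromosome 18 genes with a line from the lower to the upper quartile, and grey points are the 19 others. Chromosome 18 lies between -0.23 and -0.20 in the 4 comparisons of PDPN-positive with PDPN-negative cells and at 0.01 and 0.02 in the other 2.

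The lowering was seen along the chromosome up to 90 Mb. In windows of 10 Mb with at least 15 genes, all 9 medians were below 0 in each of the 4 comparisons of PDPN-positive with PDPN-negative cells. They lay between -0.32 and -0.18 in CCR7-PDPN against CCR7 and between -0.33 and -0.14 in X2-PDPN against X2. On the other chromosomes, 4 of 224 windows were as low as the highest of these 9 in the first pair and 18 of 224 in the second. For CCR7-PDPN against X2 it was 29 of 224 in batch 1 and 49 of 224 in batch 2. The PDPN pairs chose the chromosome, and CCR7-PDPN against X2 shares libraries with them, so these window counts are a description. In CCR7-PDPN against X2 the 9 medians spanned -0.33 to -0.12 in batch 1 and -0.31 to -0.10 in batch 2. In CCR7 against X2 they spanned -0.03 to 0.07, with 3 of 9 below 0, and in CCR7-PDPN against X2-PDPN -0.04 to 0.10, also with 3 of 9 below 0.

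Among these 9 windows the largest step between neighbours was 0.12 in CCR7-PDPN against CCR7, at 10 Mb, where the median went from -0.32 to -0.20. The genes on either side, the deubiquitinase gene Usp14 and Rock1, had log2 fold changes of -0.19 and -0.24. In X2-PDPN against X2 the largest step was 0.15 at 40 Mb, from -0.15 to -0.30, and the step at 80 Mb, from -0.29 to -0.14, was about as large. The border at 40 Mb lay between the glucocorticoid receptor gene Nr3c1 (-0.17) and Yipf5 (-0.32). Against X2, CCR7-PDPN had its largest step, 0.21, at 30 Mb in both batches, between Celf4 (-0.86 and -0.84) and the unnamed gene AC102496.1 (0.67 and 0.35). The window from 30 to 40 Mb held the most genes, 91 in batch 1, and had the highest median in 3 of these 4 comparisons, -0.18, -0.12 and -0.10, and in X2-PDPN against X2 it was -0.15 where the highest was -0.14.

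The first and the last gene by position were lower in both PDPN pairs, while the few genes beyond 90 Mb were mixed. Crem, a cAMP-responsive transcription factor and the first gene by position (3266048 to 3337748 on GRCm38, as for all positions here), had 4.18, 4.53, 4.75 and 4.68 CPM in CCR7 and 3.78, 3.81, 3.38 and 4.07 in CCR7-PDPN of batch 1. In batch 2 it had 4.85, 4.38, 4.64 and 4.50 CPM in X2 and 3.06, 2.84, 2.57 and 3.04 in X2-PDPN. Gm45871, the last gene (90579777 to 90592528), fell from 7.17 ± 0.671 CPM (SD, n = 4) in CCR7 to 4.91 ± 0.257 in CCR7-PDPN and from 8.37 ± 0.669 in X2 to 5.54 ± 0.444 in X2-PDPN. Neither gene had overlapping libraries in these pairs. Beyond 90 Mb only 3 genes were tested, with medians of -0.55 in CCR7-PDPN against CCR7 and 0.01 in X2-PDPN against X2. Tmx3, a thioredoxin-related protein of the endoplasmic reticulum named here after its values were seen, was at 0.02 and 0.01, and the low pseudogene Eif3s6-ps2 at -0.55 (standard error 0.29) and 0.02.

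**Figure D3:**
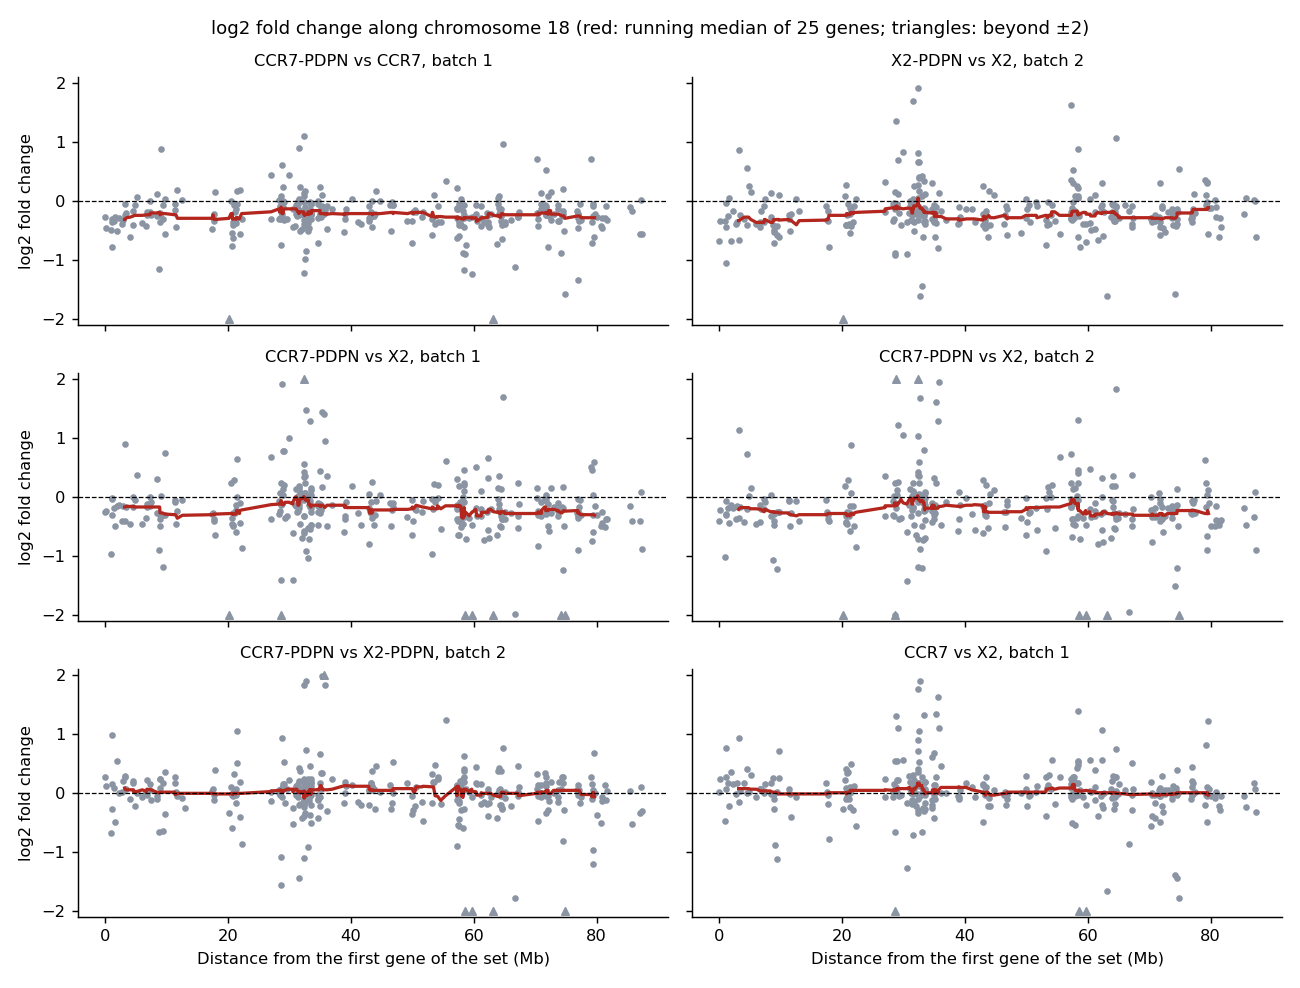
log2 fold change of each chromosome 18 gene (points; triangles lie beyond 2 or -2) against its distance in Mb from the first gene of the set, in the 6 comparisons; the red line is the running median of 25 genes. The line lies below 0 along most of the chromosome in the upper 4 panels, coming nearest to 0 a little past 30 Mb where genes are densest, and runs near 0 in the lower 2.

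The role lists held 119 genes, of which 91 were among the 326. Their counts stand beside 61.5% and 62.5% of the tested chromosome 18 genes called lower in the 2 PDPN pairs, and 20.7% and 28.5% of all genes. All 10 mitochondrial genes were below 0 in both PDPN pairs, with medians of -0.25 and -0.30, and 9 and 10 of them were called lower. Hspa9, which folds proteins imported into mitochondria, had 1560, 1670, 1830 and 1800 CPM in CCR7 and 1210, 1160, 1200 and 1240 in CCR7-PDPN of batch 1. In batch 2 it had 1600, 1580, 1660 and 1710 CPM in X2, 1170, 1160, 1130 and 1160 in X2-PDPN and 1140, 1170, 1180 and 1230 in CCR7-PDPN. The highest PDPN-positive library was thus below the lowest PDPN-negative one. The log2 fold change of Hspa9 was -0.51 (standard error 0.04) and -0.50 (standard error 0.03) in the PDPN pairs and -0.47 (standard error 0.03, adjusted p = 3.8e-20, edgeR) in CCR7-PDPN against X2 of batch 2. It was 0.06 in CCR7 against X2, not called (adjusted p = 0.23, edgeR), and 0.03 in CCR7-PDPN against X2-PDPN (adjusted p = 0.31, edgeR). Atp5a1, a subunit of ATP synthase, was at -0.16 and -0.30, Me2, mitochondrial malic enzyme, at -0.30 in both, and Grpel2, a cochaperone of Hspa9, at -0.29 and -0.61.

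Of the protein turnover genes all 11 lay below 0 in CCR7-PDPN against CCR7 and 10 of 11 in X2-PDPN against X2, with medians of -0.30 and -0.33, and 11 and 10 were called lower. The scaffold Cul2 of ubiquitin ligases was at -0.46 and -0.33, the autophagy conjugate gene Atg12 at -0.44 in both, and Sec11c, a subunit of signal peptidase, at -0.43 and -0.59. The exception was Mib1, a ubiquitin ligase for Notch ligands, with -0.23 and 0.04. Against X2, CCR7-PDPN had 10 of the 11 called lower in each batch. There 59.0% and 61.5% of the tested chromosome 18 genes were called lower, and 30.6% and 32.8% of all genes. CCR7 against X2 had 2 of the 11 lower and 4 higher, where 25.2% and 24% of all genes were called. Nothing is read from these counts.

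Of 14 genes of translation and RNA processing, 14 and 13 lay below 0 in the 2 PDPN pairs, with medians of -0.21 and -0.25, and 11 and 10 were called lower and none higher. Rps14, of the small ribosomal subunit, had 724, 803, 785 and 762 CPM in CCR7 and 665, 627, 638 and 570 in CCR7-PDPN of batch 1. It had 767, 777, 765 and 745 CPM in X2 of batch 2 and 617, 600, 621 and 612 in X2-PDPN. Lars, the leucyl-tRNA synthetase, was at -0.53 and -0.39. Snrpd1, a core protein of the spliceosome, was at 0.00 and -0.08, and the nuclear matrix protein gene Matr3 at -0.01 and -0.21. Etf1, the translation release factor, was at -0.21 and -0.35, while in CCR7-PDPN against X2 it was at 0.00 and 0.02. It had 466 to 493 CPM in CCR7 and, within batch 1, 402 to 422 in CCR7-PDPN, where X2 had 407 to 422.

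In the TGF-beta list 3 of 5 genes were called lower in CCR7-PDPN against CCR7 and 4 of 5 in X2-PDPN against X2. Smad4, the common partner of the pathway's signal transducers, had 146, 161, 160 and 163 CPM in CCR7 and 139, 141, 131 and 136 in CCR7-PDPN of batch 1. In batch 2 it had 167, 160, 159 and 165 CPM in X2 and 134, 123, 123 and 129 in X2-PDPN. The groups did not overlap, and the log2 fold changes were -0.20 and -0.35. Smad2, a receptor-activated transducer, was at -0.22 and -0.19, and Nedd4l, a ubiquitin ligase that acts on Smads, at -0.35 and -0.65. Smad7, an inhibitor of the pathway, was at 0.09 and -0.11. Ldlrad4, another inhibitor, went the other way, from 3.13 ± 0.429 to 6.14 ± 0.459 CPM (SD, n = 4) with Ccr7 and from 1.76 ± 0.0832 to 3.72 ± 0.427 CPM without it. Against X2 it was higher in CCR7 (log2 fold change 0.74, standard error 0.13, adjusted p = 8.4e-05, edgeR) and in CCR7-PDPN of batch 2 (1.83, standard error 0.12).

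The 3 Wnt genes, Apc (-0.42 and -0.20), Csnk1a1 (-0.16 and -0.23) and Csnk1g3 (-0.19 and -0.35), were called lower in both PDPN pairs. In CCR7 against X2, 2 of these 3 were higher, Apc by 0.28 and Csnk1a1 by 0.17 on the log2 scale. In that comparison 25.2% of the tested chromosome 18 genes and 24% of all genes were called higher. The 6 genes of growth factors, receptors and kinases were all below 0 in both pairs, with 3 and 3 called. Among them were Pdgfrb, a receptor for platelet-derived growth factor, at -0.33 and -0.29, and Hbegf, a ligand of the EGF receptor, at -0.46 and -0.60. Nrg2, a neuregulin, had the largest decrease of this list. It had 10.5, 11.0, 9.71 and 10.0 CPM in CCR7 and 5.68, 5.70, 5.74 and 5.89 in CCR7-PDPN of batch 1, and 10.8, 10.6, 8.82 and 11.5 in X2 and 3.29, 3.03, 3.54 and 3.86 in X2-PDPN.

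Of 9 transcription factor genes, 6 were called lower and 2 higher in CCR7-PDPN against CCR7, and 4 lower and 3 higher in X2-PDPN against X2. Zeb1, a repressor of epithelial genes, was at -0.28 and -0.17, and Nr3c1 at -0.47 and -0.17. Tcf4 and Tshz1 were at -0.32 and -0.42 in the pair with Ccr7 but at -0.06 and 0.02 in the pair without it. The immediate early gene Egr1, expressed at low level, was at 0.90 and 1.69, and Cxxc5, a zinc finger protein, at 0.18 in both. In X2-PDPN Egr1 had 5.27 to 6.05 CPM, and in the other 5 groups it did not pass 2.58.

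Innate immunity genes were few and mixed. Of 5, 2 were called lower and 1 higher in the pair with Ccr7, and 1 lower and 2 higher in the pair without it. Tmem173, which encodes the DNA sensor adaptor STING, had 92.9, 90.6, 94.8 and 92.8 CPM in X2-PDPN and 67.0 to 78.4 in the other 5 groups. Its log2 fold changes were -0.10 and 0.40, and these differed (difference -0.50, standard error 0.05, adjusted p = 8.4e-11, edgeR). All 5 were called lower in CCR7-PDPN than in X2-PDPN, with a median of -0.51. In that comparison 27.8% of the tested chromosome 18 genes and 32.0% of all genes were called lower.

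Of 8 genes of apoptosis and the cell cycle, 7 and 8 lay below 0, and 6 and 7 were called lower. The mitotic kinesin gene Kif20a was at 0.00 and -0.12 and the phosphatase gene Cdc25c at 0.04 and -0.24. Of 6 lipid and sterol genes, 3 and 3 were lower and 2 and 2 higher. Npc1, which exports cholesterol from lysosomes, was at -0.23 and -0.70. Its CCR7 libraries had 81.3, 106, 112 and 116 CPM, of which the lowest overlapped CCR7-PDPN (81.4 to 94.5). Of 14 genes of adhesion, matrix and cytoskeleton, 6 were lower and 1 higher in the pair with Ccr7, and of 13 tested without it 6 were lower and 2 higher. Its values ranged from -3.17 to 0.89 and from -2.87 to 0.36.

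**Figure D4:**
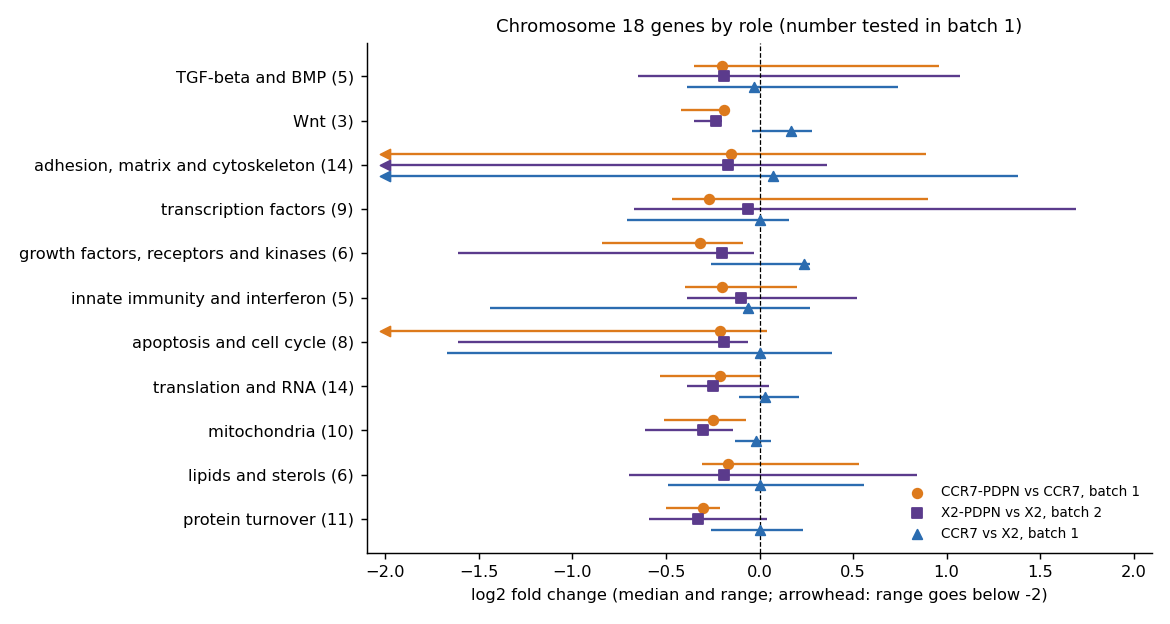
log2 fold change of chromosome 18 genes grouped by role, as the median (symbol) and range (line) of each list in CCR7-PDPN against CCR7, X2-PDPN against X2 and CCR7 against X2; numbers in brackets are genes tested in batch 1 and arrowheads mark ranges that go below -2. The 11 medians are below 0 in both PDPN pairs, and those of CCR7 against X2 lie between -0.06 and 0.24.

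A few genes fell or rose far outside this narrow band. Dtna, which encodes the dystrophin-associated protein dystrobrevin alpha (23415135 to 23659715), had, among genes averaging 3 or more log2 CPM, the lowest fold change in all 4 comparisons of PDPN-positive with PDPN-negative cells. It had 18.9, 22, 24.1 and 23 CPM in CCR7 and 2.49, 2.15, 2.53 and 2.57 in CCR7-PDPN of batch 1. In batch 2 it had 23.8, 26.2, 27.3 and 26.7 CPM in X2, 3.69, 3.70, 3.71 and 3.04 in X2-PDPN and 2.67, 2.51, 3.22 and 2.72 in CCR7-PDPN. The PDPN-positive libraries thus kept 11.1% and 13.7% of the fitted level of their PDPN-negative partners. The log2 fold change against X2 was -3.45 (standard error 0.09, adjusted p = 4.6e-18, edgeR) for the batch 1 CCR7-PDPN cells and -0.28 (standard error 0.06, adjusted p = 0.001, edgeR) for CCR7.

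Pmaip1, which encodes the pro-apoptotic protein NOXA (66458533 to 66465565), was a gene of low level that was lower with Ccr7 and with PDPN. X2 had 6.22, 5.60, 6.27 and 7.22 CPM in batch 1 and 6.15, 6.54, 6.50 and 6.79 in batch 2. CCR7 had 1.70, 1.81, 1.98 and 2.57 CPM and X2-PDPN 2.27, 2.06, 1.71 and 2.52. CCR7-PDPN had 0.221, 0.0641, 0.0704 and 0.102 CPM in batch 1 and 0.267, 0.225, 0.253 and 0.110 in batch 2, from 2 to 8 counts per library. CCR7 and X2-PDPN overlapped in level, and all CCR7-PDPN libraries were below them. The log2 fold change was -4.05 (standard error 0.29) with Ccr7 and -1.61 (standard error 0.12) without it, and the difference between them was -2.44 (standard error 0.34, adjusted p = 3.4e-07, edgeR).

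Lims2, Epb41l4a and Pstpip2 were lower than X2 in both CCR7 and X2-PDPN cells, and between CCR7-PDPN and CCR7 they differed by at most 0.20 on the log2 scale. Lims2, an adaptor of integrin-linked kinase (31922290 to 31958619), had 29.1, 29.7, 31.5 and 33.2 CPM in X2 of batch 1, 4.28, 5.50, 6.10 and 5.68 in CCR7 and 6.43, 4.87, 5.84 and 5.66 in CCR7-PDPN. In batch 2 it had 28.6, 31.9, 31.1 and 34.2 CPM in X2 and 16.9, 16.9, 16.8 and 17.8 in X2-PDPN. CCR7 and CCR7-PDPN overlapped, while X2-PDPN lay between them and X2. CCR7 against X2 gave a fitted log2 difference of -2.52 (standard error 0.09, adjusted p = 9.3e-16, edgeR) and CCR7-PDPN against X2-PDPN gave -1.57 (standard error 0.07, adjusted p = 2.6e-23, edgeR). Epb41l4a, of the band 4.1 family of membrane skeleton proteins, was at -1.27 in CCR7 against X2, -0.90 in X2-PDPN against X2 and -0.13 in CCR7-PDPN against CCR7. Pstpip2, an F-BAR protein that bends membranes, was at -1.44, -0.39 and 0.20 in the same comparisons.

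Other genes among the lowest were lower in both PDPN pairs. Cystm1 was at -0.37 and -1.44, Sh3tc2, of endosomal recycling, at -0.75 and -0.78, and the sorting nexin gene Snx2 had 201 to 211 CPM in CCR7 cells and 123 to 127 with PDPN (-0.71). Among the lowest in CCR7-PDPN against X2-PDPN were Igip (-0.92, standard error 0.05, adjusted p = 9.8e-19, edgeR), Celf4, an RNA-binding splicing regulator (-0.87, standard error 0.04), and Ndst1, a heparan sulphate sulphotransferase (-0.55, standard error 0.03). Celf4 had 40.9 to 45.9 CPM in X2-PDPN and in X2 40.7 to 43.9, against 27.7 to 28.8 for CCR7 and 22.4 to 24.5 once both Ccr7 and PDPN were present.

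Against the trend, 8 of the 316 genes tested in both PDPN pairs were called higher in both. The shares of all tested genes called higher in both, or in opposite directions, were not computed. The chromosome was chosen for being lower in these pairs, so the counts are a description. Stard4, a carrier of cholesterol between membranes (33199355 to 33213862), had 117, 103, 95.7 and 94.1 CPM in CCR7 and 146, 147, 135 and 131 in CCR7-PDPN of batch 1. In batch 2 it had 76.0, 70.2, 75.5 and 63.2 CPM in X2 and 128, 125, 124 and 132 in X2-PDPN. Its groups did not overlap in either pair, with log2 fold changes of 0.44 and 0.84, and it was also higher in CCR7 than in X2 (0.56, standard error 0.06, adjusted p = 3.8e-06, edgeR). The other 7 were Proc (0.62 and 1.36), Egr1, 1700066B19Rik (1.10 and 1.91), Cxxc5, Synpo (0.23 and 0.36), Ldlrad4 and Lipg (0.53 and 0.31). Synpo encodes an actin-associated protein and Lipg the endothelial lipase. Proc and 1700066B19Rik were named here after their values were seen. Another 8 genes were called in opposite directions in the 2 pairs, among them Ecscr (-0.98 and 0.41), Tmem173, Arap3, Isoc1 (0.35 and -0.56) and Pstpip2.

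Of the named genes, 5 moved differently with PDPN in the Ccr7 and vector arms, by more than 1 on the log2 scale. Ecscr, an endothelial cell surface protein gene, had 16.6, 16.3, 15.5 and 16 CPM in CCR7 and 8.26, 8.52, 7.92 and 8.03 in CCR7-PDPN of batch 1, and 7.00, 5.97, 5.88 and 7.19 in X2 and 8.69, 8.74, 8.09 and 9.17 in X2-PDPN. It was lower with PDPN in the first pair and higher in the second, and CCR7 stood above the other 5 groups. The difference between the PDPN differences was -1.39 (standard error 0.10, adjusted p = 7.8e-14, edgeR). Arap3 had the same pattern, with 53.0 to 58.2 CPM in CCR7, 32.8 to 36.2 in CCR7-PDPN, 35.6 to 37.7 in X2 and 44.8 to 46.3 in X2-PDPN. Its difference was -1.01 (standard error 0.05, adjusted p = 2.1e-17, edgeR). Cystm1 went the other way, by 1.07 (standard error 0.11, adjusted p = 2.1e-10, edgeR), and Afap1l1 and Pmaip1 were at -1.23 and -2.44. Of the chromosome 18 genes 3.41% lay below -1 in this difference, against 5.52% of all tested genes. The share above 1 was not computed over all genes. Some named genes were picked for large changes, and unnamed genes past 1 are not listed. Nothing particular to chromosome 18 is therefore read from the count of 5.

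Isoc1 was higher in CCR7-PDPN than in X2 and X2-PDPN, and Psd2 was higher in CCR7 than in X2. Isoc1, of the isochorismatase family, had 12.1 to 12.9 CPM in 7 of 8 CCR7-PDPN libraries and 10.5 in the eighth, against 4.55 to 6.38 in X2-PDPN and 6.92 to 8.73 in X2. CCR7-PDPN exceeded X2-PDPN by 1.23 (standard error 0.08, adjusted p = 3.8e-17, edgeR). Isoc1 also changed with PDPN, by 0.35 in CCR7-PDPN against CCR7 and by -0.56 in X2-PDPN against X2. Psd2, an exchange factor for ARF6, had 12.2 to 15.5 CPM in CCR7 against 3.64 to 3.87 in X2 of batch 1, a fitted log2 difference of 1.9 (standard error 0.09, adjusted p = 2.1e-13, edgeR).

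**Figure D5:**
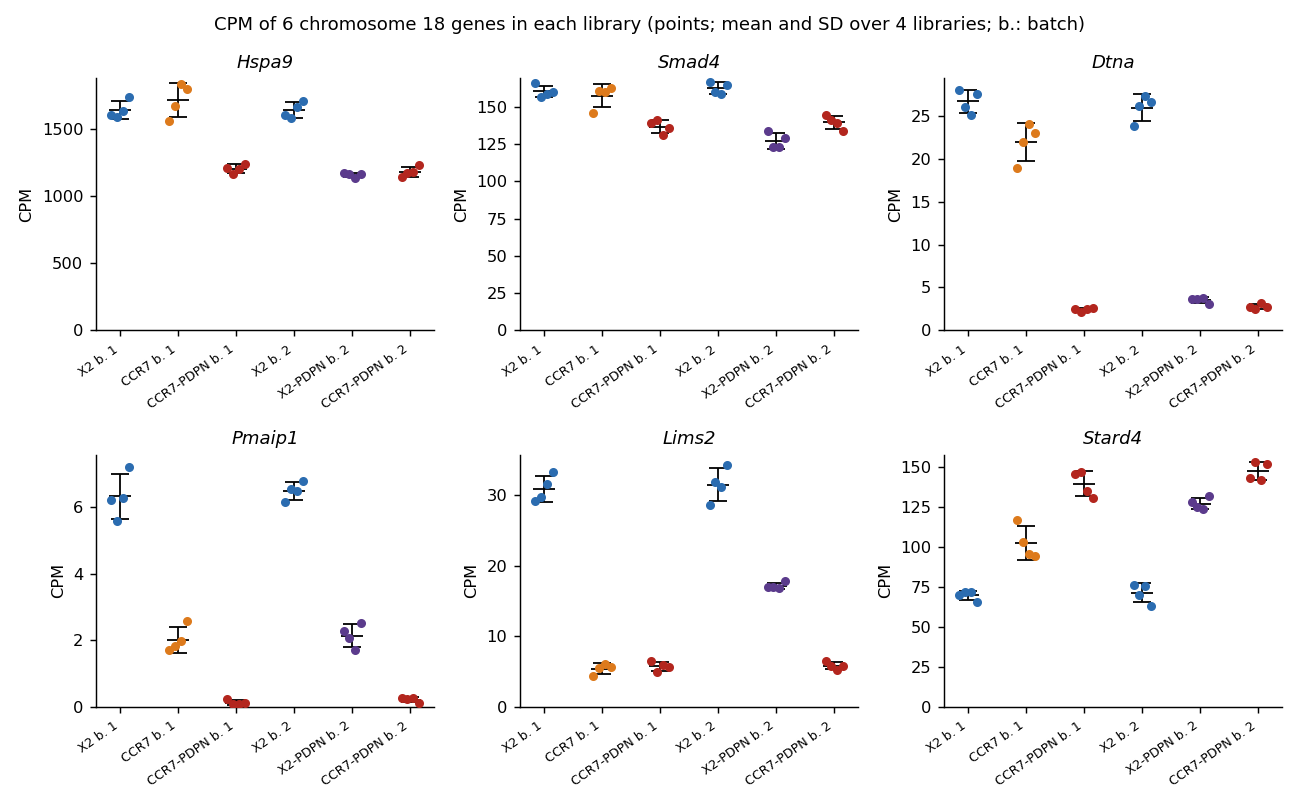
CPM of Hspa9, Smad4, Dtna, Pmaip1, Lims2 and Stard4 (vertical axes from 0) in the 24 libraries by group and batch (b.), with the mean and SD of 4 libraries. Hspa9, Smad4 and Dtna are lower in all PDPN-positive libraries, Pmaip1 and Lims2 are also lower in CCR7 cells, and Stard4 is higher.

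Fewer of the genes at low level lay below 0. In X2-PDPN against X2 the genes were split into 3 equal parts by average log2 CPM. The lowest part had a median of -0.10 with 60.4% below 0, and the middle and highest parts had -0.25 and -0.24 with 88.6% and 88.7% below 0. In CCR7-PDPN against CCR7 the 3 medians were -0.23, -0.25 and -0.22, with 73.8%, 90.7% and 94.4% below 0. Protein-coding genes had medians of -0.24 in both pairs, and the other 53 and 49 genes -0.21 and -0.07. The 2 strands did not stand apart, at -0.21 and -0.25 in the first pair and -0.22 and -0.21 in the second.

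The tested genes had a median GC content of 47.4% in their longest transcript, below the 49.9% of all tested genes, and a median exonic length of 4505 bases against 4059. Within chromosome 18 the part of 3 with the lowest GC content had medians of -0.27 and -0.26 and the part with the highest -0.18 and -0.12. Genes of other chromosomes in the same GC ranges had medians of -0.05 and -0.03 in the lowest and 0.05 and 0.03 in the highest. In the ranges of length and of level, genes elsewhere had medians between -0.03 and 0.08. The part of these properties in the results was not tested.

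The count limit was met narrowly by Gm26682, Lama3 and Gm7665, each with 10 counts in the library that decided it, and missed by B930094E09Rik, AC141471.3 and Dnd1, with 9. Diaph1 and Taf7, which are not protocadherins, lay inside the left-out interval and were named after their values were seen. Diaph1, a formin that assembles actin, was at -0.16 and -0.21 in the PDPN pairs, and Taf7, a subunit of the general transcription factor TFIID, at 0.51 and -0.16. The 5 genes that had the highest CPM, uncorrected for length, were Hspa9 (mean of batch 1 1520), Atp5a1 (923), Rpl17 (815), Rps14 (741) and Nars (671).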

How the data were processed

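Polyadenylated RNA was sequenced as stranded, single-end libraries. Per the labels, the authors mapped reads to GRCm38, and the deposited values are raw counts for Ensembl genes, 1 table per batch, without normalisation or pooling. The counting tool's settings are not given in the sources used here. Gene positions were those of the deposited batch 1 table.

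Counts were fitted within a batch by edgeR 4.0.16 in R 4.3.3 with TMM factors (0.9859 to 1.017), filterByExpr and robust quasi-likelihood tests over the 3 groups, and p-values were adjusted by Benjamini-Hochberg over all 13261 (batch 1) or 13314 genes. The biological coefficient of variation was 0.0471 and 0.0322. The difference of the PDPN differences was fitted over both batches. Standard errors were obtained by dividing the size of the log2 fold change by the root of its F statistic. CPM are TMM-scaled. The fits were also run on simulated data with few changed genes and the same spread for every gene. These settings differ from the data, so nothing is read from that run. Replicate libraries of a group differed by more than sampling noise (chi-square per degree of freedom 1.99 to 20.4 in 36 pairs). The highest values, 20.4, 16.0 and 12.3, were those of CCR7 replicate 1 against the other CCR7 libraries. Outside the CCR7 group no pair passed 6.59. Figures were made with Python 3.11.15 and matplotlib 3.10.9.

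The chromosome, the members and the role lists were chosen with earlier results of these data known. Named genes were the members in the role lists, the 5 lowest and 5 highest per comparison averaging 3 or more log2 CPM, the 5 of highest CPM, those at the ends and at the largest window step, and those at the count limit. Outside the members, only Ccr7 and Pdpn, the cell type markers and 2 genes of the left-out interval were named. Libraries of a group that share a replicate number with libraries of another group did not deviate together (1 of 24 correlations over 0.1), so no pairing was used. Alternatives were other scaling factors, DESeq2 1.42.0, other count filters, other sets of libraries, a replicate block, other windows, and the interval kept. The level limit on members was an alternative chosen after seeing the data.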

Additional observations from a re-analysis of the deposited data

Results flagged for a closer look

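In 16 of 282 groups of 4 libraries, the highest or lowest library stood apart from the other 3 by more than Dixon's 95% critical value. Chance flags about 1 group in 20, or 14.1 of 282. In X2 of batch 1 these were the share of counts in replicate 4 (2.57%), and the CPM of Apc (110) and Igip (20.6) in replicate 4, of Lipg (17.9) and Lmnb1 (192) in replicate 1 and of Snx2 (190) in replicate 3. In CCR7 they were Lmnb1 (231 CPM) and Pdgfrb (68.3 CPM), both in replicate 1. In CCR7-PDPN they were Ndst1 (115 CPM) in replicate 4 of batch 1, and Smad2 (92.8 CPM) and Snx2 (128 CPM) in replicate 4 of batch 2. In X2-PDPN they were Dtna (3.04 CPM) and Lims2 (17.8 CPM) in replicate 4, and Epb41l4a (24.9 CPM) and Pdgfrb (59.4 CPM) in replicate 1. In X2 of batch 2, Psd2 stood apart in replicate 2 (4.52 CPM).

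The PDPN difference with Ccr7 differed from that without it for 5 named genes by more than 1 on the log2 scale, by edgeR's quasi-likelihood test of the difference. The difference of the log2 fold changes was -2.44 for Pmaip1, -1.39 for Ecscr, -1.23 for Afap1l1, -1.01 for Arap3 and 1.07 for Cystm1. Below -1 lay 3.41% of the chromosome 18 genes and 5.52% of all tested genes, so nothing particular to chromosome 18 is read from this count. The arms with and without Ccr7 were sequenced in different batches, so Ccr7 and batch cannot be told apart in these differences.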

How the results depend on the processing

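Of 621 alternative values of the medians, counts, shares and window medians, 603 kept their size class and 18 moved. No median away from 0 reversed, and a change of sign was not counted for medians near 0. With 1 library left out, the median of the difference of the PDPN differences ranged from -0.01 to 0.014. Among named genes, only the 5 lowest and 5 highest per comparison were run through the alternatives, and these were picked for large changes. All 1200 of their alternative values kept their direction and side of the threshold. The other named genes were not checked in this way. With a mean count of at least 50, which leaves fewer genes tested, the genes lower past 2-fold were 5 in CCR7-PDPN against CCR7, 8 and 10 against X2 in batches 1 and 2, 4 in CCR7-PDPN against X2-PDPN and 5 in CCR7 against X2, and the medians against X2 were -0.22 and -0.23. With the protocadherin interval kept, the median against X2 in batch 1 was -0.18. Upper-quartile factors gave -0.19 in X2-PDPN against X2 and 0.001 in CCR7-PDPN against X2-PDPN, and 5 Mb windows a lowest median of -0.11 in the latter. Without the 5 genes of highest CPM, the share of counts was 85.2% of CCR7 and 85.8% of X2 in CCR7-PDPN of batch 1, and 85.2% and 85.6% of X2 in X2-PDPN and CCR7-PDPN of batch 2. Genes in the upper part of level, a limit chosen after seeing the data, gave -0.22 in CCR7-PDPN against X2 of batch 1 and -0.24 in X2-PDPN against X2. The causes were not tested. Leaving out 1 library at a time, the medians ranged from -0.23 to -0.22 in CCR7-PDPN against CCR7, -0.22 to -0.21 in X2-PDPN against X2, -0.20 to -0.19 and -0.22 to -0.20 against X2, and 0.008 to 0.033 in CCR7 against X2. With a replicate block, 195 genes were lower and 13 higher in CCR7-PDPN against CCR7, and 198 and 26 in X2-PDPN against X2, with medians of -0.23 and -0.21, and no count moved by over 1.5 times. Over these settings the median of all genes lay between -0.034 and 0.018. As libraries were technical replicates of 1 population per derivative, the spread between independent cultures is unknown.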
